A study of Mus musculus with 10 samples.

Results

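The corticotropin-releasing factor system was followed through 4 genes, *Crh*, *Crhbp*, *Crhr1* and *Crhr2*, of the 33502 gene symbols counted in single nuclei from the thalamic paraventricular nucleus (PVT) of the mouse and the tissue around it. The members were taken by symbol, and their molecules were summed per library and cell type, per group of neurons named from regional marker genes, and per subtype of PVT neurons. In the mouse genome build mm10, *Crh* lies on chromosome 3 (19693401 to 19695396), *Crhbp* on chromosome 13 (95431376 to 95444831), *Crhr1* on chromosome 11 (104130463 to 104175523) and *Crhr2* on chromosome 6 (55090048 to 55133016), and all are protein-coding.

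*Crh* encodes corticotropin-releasing factor, a peptide that starts the hormonal stress response from the hypothalamus and also acts as a neuromodulator elsewhere in the brain. The peptide and its relatives, the urocortins, act on receptors encoded by *Crhr1* and *Crhr2*, which couple through a stimulatory G protein to adenylyl cyclase. *Crhbp* encodes a secreted binding protein that holds the peptide away from these receptors. The PVT is a midline thalamic nucleus known for roles in arousal, stress and motivated behaviour, and its neurons are mostly glutamatergic.

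The tissue came from C57BL/6J mice aged 12 weeks, with no transgene or treatment named in the labels. The methods describe 4 biological replicates, each pooled from several mice and dissected along the length of the PVT. They do not say whether this pooling holds for all 10 libraries. The deposited data hold 10 libraries, 6 labelled female and 4 whose titles give no sex, which are called libraries 1 to 4 here and are listed as male in the table of nuclei. Female libraries held 1049 to 1615 nuclei and 5119927 to 12891409 unique molecular identifiers (UMIs, counts of captured RNA molecules), and libraries 1 to 4 held 875 to 7213 nuclei and 7568267 to 55956635 UMIs. The neurons of the female libraries had a median of 6843 UMIs and those of libraries 1 to 4 a median of 13580. The 13 mitochondrial genes had 562659 UMIs in the female libraries and 0 in libraries 1 to 4, so that sex, depth and the way genes were counted cannot be told apart between these sets. Of 20483 distinct nucleus barcodes, 20 occurred in more than 1 library.

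The 20503 nuclei carry the authors' cluster names, which give 8 cell types. Of the 10410 neurons, 10307 with more than 1000 genes were clustered again with the 4 members left out, and each cluster was named from fixed markers as PVT-like (5884 nuclei), MD-like (mediodorsal thalamus, 937), Hb-like (habenula, 868) or GABAergic-like (936). A cluster of 770 nuclei led by *Lpl*, a marker of the intermediodorsal thalamus, rests on fewer than 3 markers and is called *Lpl* neurons, and 912 nuclei led by *Rxfp1* stay unnamed. In the GABAergic-like group, 202 of 936 nuclei (21.6%) had a UMI of *Gad2*, which makes the transmitter GABA, and 687 (73.4%) had one of *Slc17a6*, which loads glutamate into vesicles, so the group is mixed by these markers. PVT-like neurons fell into clusters named PVT1-like (1293 nuclei), PVT2-like (704 nuclei), PVT3-like (898 nuclei), PVT4-like (861 nuclei) and PVT5-like (879 nuclei) and 2 unnamed ones led by *Cdh22* (1089) and *Gem* (160). Classes were made on the same nuclei in which the members were then measured.

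All 4 members were sparse. *Crhbp* had the most molecules, 531 UMIs in 272 nuclei with at most 15 in a nucleus, and 85.3% of them were in neurons. *Crhr1* had 299 UMIs in 259 nuclei, of which 280 UMIs were in neurons, and never more than 3 in a nucleus. *Crh* had 112 UMIs in 79 nuclei, with up to 10 in a nucleus, and 92.9% of them were in neurons. *Crhr2* had 30 UMIs in 26 nuclei, 23 of them in neurons. At this depth a nucleus without a UMI of a member cannot be taken to lack its RNA.

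Levels are given in CPM, the gene's UMIs over all UMIs of a class in a library, mitochondrial genes left out, on the usual CPM scale, and as mean ± SD over libraries with at least 10 nuclei of the class. The summed UMIs of a class were compared with the average of all other classes by edgeR's quasi-likelihood test, and a call needed an adjusted p below 0.05 together with a log2 difference of more than 0.5 in either direction. A filter on low counts removed all members among the cell types and among the neuron groups and kept 1 of 4, *Crhbp*, among the PVT subtypes, so members are read from the fit without the filter unless stated. Because such fits lean on few molecules, pairs of classes within the same library were also compared by an exact two-sided sign-flip permutation test, adjusted over all members and pairs of a level.

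Between cell types, *Crh*, *Crhbp* and *Crhr1* were higher in neurons than in the mean of the other types. *Crh* in neurons ranged from 0.211 to 2.50 CPM with a median of 0.685, and it was above 0 in every library. The edgeR log2 difference was 2.67 ± 0.65 (SE, adjusted p = 0.00023), and 3.33 without library 3. *Crhr1* in neurons ranged from 1.80 to 3.62 with a median of 2.29, which gave 2.16 ± 0.41 (adjusted p = 2.1e-06). *Crhbp* in neurons ranged from 0.740 to 10.3 with a median of 5.39, a log2 difference of 1.60 ± 0.29 (adjusted p = 6.8e-07), and it was 2.35 without female library 1 and 2.28 without library 3. Thus 3 of 4 members were called higher in neurons, where 29.8% of the 28832 genes tested were called higher. *Crhr2* in neurons was at 0.194 ± 0.205 and was not called. The call of *Crh* was lost in DESeq2 (-0.01 ± 2.27, with no adjusted p), in libraries 1 to 4 alone (edgeR adjusted p = 0.121) and in nuclei with at most 1% mitochondrial UMIs (edgeR adjusted p = 0.0582). That of *Crhr1* was lost in DESeq2 (0.97 ± 0.47, adjusted p = 0.0628) and in nuclei with at most 1% mitochondrial UMIs (edgeR adjusted p = 0.0755).

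Outside neurons, *Crhbp* was the member with the most UMIs. Astrocytes had 48 *Crhbp* UMIs, in all 10 libraries, at 0.620 to 5.34 CPM with a median of 2.87. Neurons were above astrocytes in 8 of 10 libraries (exact p = 0.0176, adjusted p = 0.0410). Oligodendrocytes had 16 *Crhbp* UMIs in 6 libraries, at 2.51 ± 3.57 CPM, microglia were at 1.99 ± 4.39, OPCs (oligodendrocyte precursors) at 2.29 ± 4.29 and fibroblasts at 2.95 ± 8.34. Endothelial cells (0.774 ± 2.05) and ependymal cells (0.513 ± 1.04) had 1 and 2 UMIs. The part that RNA of other cells has in these low levels was not tested. For *Crhr1*, fibroblasts stood first by mean at 4.48 ± 8.84 from 2 UMIs, which was not told apart from neurons (exact p = 0.633, adjusted p = 0.709), followed by neurons (2.42 ± 0.61), OPCs (1.51 ± 2.39, 4 UMIs) and oligodendrocytes (1.47 ± 2.61, 6 UMIs). *Crh* outside neurons amounted to 8 UMIs, of which oligodendrocytes held 4 in 2 libraries, and microglia and fibroblasts had 0. *Crhr2* outside neurons amounted to 7 UMIs, 3 in astrocytes, 3 in oligodendrocytes and 1 in microglia. The pair of oligodendrocytes and neurons passed for no member. Its exact p was 0.938 for *Crh*, 0.0703 for *Crhbp*, 0.266 for *Crhr1* and 0.906 for *Crhr2*. Of the 7 pairs of neurons with another cell type, 4 passed for *Crh*, 2 for *Crhbp*, 4 for *Crhr1* and 2 for *Crhr2*.

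Among neuron groups the ligand was highest in *Lpl* neurons. *Crh* there ranged from 0 to 11.5 CPM with a median of 3.46, and 38 UMIs came from 22 nuclei in 7 of 10 libraries. The remaining groups followed at 1.19 ± 1.56 in GABAergic-like neurons, 0.825 ± 1.17 in the *Rxfp1*-led cluster, 0.767 ± 0.849 in PVT-like neurons, 0.517 ± 1.47 in Hb-like neurons and 0.402 ± 0.723 in MD-like neurons. The *Lpl* neurons at 3.87 ± 3.78 thus stood first, while 3 of their libraries had no *Crh* UMI and overlapped every other group. The edgeR log2 difference was 2.88 ± 0.40 (adjusted p = 3.3e-11), the only call of *Crh* among neuron groups, where 4.39% of 28209 genes were called higher in *Lpl* neurons. In the exact test *Lpl* neurons were above PVT-like, MD-like and Hb-like neurons (exact p = 0.0156, adjusted p = 0.0469 in each), in 7 of 10 libraries. They did not pass against GABAergic-like neurons (exact test, adjusted p = 0.150) or the *Rxfp1*-led cluster (exact p = 0.0312, adjusted p = 0.0815). No neighbours below *Lpl* neurons in this order were told apart (adjusted p from 0.750 to 1). When only neurons with over 2000 genes were clustered, the cluster named from *Lpl* was led by *Rxfp1*, and the call of *Crh* was lost (log2 difference 0.03 ± 0.18, adjusted p = 1). The *Crh* molecules were unevenly spread over nuclei: 16 of the 22 positive *Lpl* neurons had 1 UMI, and 3, in 2 libraries, had 3 or more.

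Within the PVT-like neurons, *Crh* was found mainly in the PVT4-like cluster, whose leading gene is *Npsr1*, the receptor of neuropeptide S. Of 48 *Crh* UMIs in PVT-like neurons, 38 (79.2%) were in this cluster, which holds 14.6% of PVT-like nuclei and 14.1% of their UMIs. By library, *Crh* in PVT4-like neurons ranged from 0 to 19.4 CPM with a median of 3.29, and it was above 0 in 7 of 10 libraries. The *Gem*-led cluster (1.40 ± 3.14, 1 UMI), PVT2-like (1.21 ± 1.99, 7 UMIs), PVT3-like (0.0306 ± 0.0968, 1 UMI) and PVT1-like neurons (0.0134 ± 0.0423, 1 UMI) followed PVT4-like neurons at 4.81 ± 6.00. PVT5-like and *Cdh22*-led neurons had no *Crh* UMI, where 3 molecules would have been 0.227 and 0.266 CPM. The edgeR log2 difference in PVT4-like neurons was 3.92 ± 0.47 (adjusted p = 5.9e-15), where 4.39% of 27225 genes were called higher. The same contrast did not pass in DESeq2 (3.21 ± 2.01, adjusted p = 0.335), and none of the 21 pairs of PVT clusters passed the exact test for *Crh*.

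The nuclei that carried *Crh* in the PVT4-like cluster were read for 3 subtype markers, *Npsr1*, *Cadps2* and *Col12a1*. The other markers used to name PVT4 were not read in these nuclei. Of 25 PVT4-like nuclei with a *Crh* UMI, 2 (8.00%, exact 95% interval 0.984 to 26.0) had a UMI of *Npsr1*, against 35.3% of the other PVT4-like nuclei. For *Cadps2*, a vesicle priming gene that marks PVT3, the shares were 28.0% (7 of 25, 12.1 to 49.4) and 63.2%. The direction was the same in 7 of the 7 libraries with such nuclei for *Npsr1* and in 6 of 7 for *Cadps2*. The 25 nuclei were spread over these 7 libraries, so the direction in a library can rest on few nuclei and was not tested. The median depth was 12809 UMIs in the *Crh* nuclei and 11742 in the others. The intervals cover counting error only. When PVT-like neurons were instead sorted only by *Col12a1*, *Cadps2* and *Npsr1*, each relative to its mean, the 400 nuclei assigned to *Npsr1* had 0 *Crh* UMIs (3 molecules would have been 0.597 CPM). Of the 48 UMIs, 6 (12.5%) fell to *Col12a1*, which had 13.0% of the nuclei, 3 (6.25%) to *Cadps2*, which had 11.6%, and 39 (81.2%) to nuclei with none of these markers raised, which made up 68.6%. At a finer resolution (0.6 in place of 0.4) a cluster of 684 nuclei that was again named PVT4 had 36 *Crh* UMIs.

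**Figure D1:**
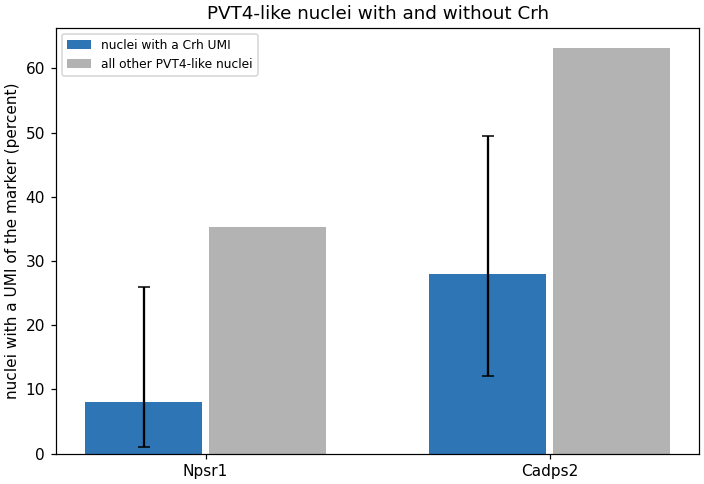
Share of PVT4-like nuclei with a UMI of *Npsr1* or *Cadps2* (percent, vertical axis), for nuclei with a *Crh* UMI (blue, 25 nuclei, bars with exact 95% intervals) and for all other nuclei of the cluster (grey). The *Crh* nuclei stood at 8.00% for *Npsr1* and 28.0% for *Cadps2*, below 35.3% and 63.2% in the others.

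The binding protein showed a different distribution. *Crhbp* in PVT-like neurons ranged from 1.34 to 15.4 CPM with a median of 7.76 and was present in all 10 libraries, from 369 UMIs. In GABAergic-like neurons it ranged from 0 to 29.1 with a median of 8.95, from 69 UMIs, and 2 libraries had none. The mean of 11.7 ± 11.2 in GABAergic-like neurons and of 8.20 ± 5.23 in PVT-like neurons were not told apart (exact p = 0.291, adjusted p = 0.485). By mean the groups below them were the *Rxfp1*-led cluster (1.16 ± 2.28), Hb-like neurons (0.788 ± 1.69), *Lpl* neurons (0.0707 ± 0.152, 2 UMIs) and MD-like neurons (0.0161 ± 0.0508, 1 UMI). PVT-like neurons were above MD-like, *Lpl* and Hb-like neurons in 10 of 10 libraries (exact p = 0.00195, the smallest that 10 libraries allow, adjusted p = 0.0167), and above the *Rxfp1*-led cluster in 9 (exact p = 0.00781, adjusted p = 0.0276). GABAergic-like neurons were above MD-like, *Lpl* and Hb-like neurons in 8 of 10 libraries (exact p = 0.00781, adjusted p = 0.0276), and did not pass against the *Rxfp1*-led cluster (7 of 10, exact p = 0.0234, adjusted p = 0.0639). In edgeR the log2 difference was 3.55 ± 0.31 in GABAergic-like neurons (adjusted p = 6.2e-28), where 9.36% of genes were called higher, and 3.03 ± 0.24 in PVT-like neurons (adjusted p = 1.9e-35), where 11.3% were. *Crhbp* was also called lower in MD-like neurons, from 1 UMI (-3.55, and -4.52 without library 4), where 9.26% of genes were called lower.

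**Figure D2:**
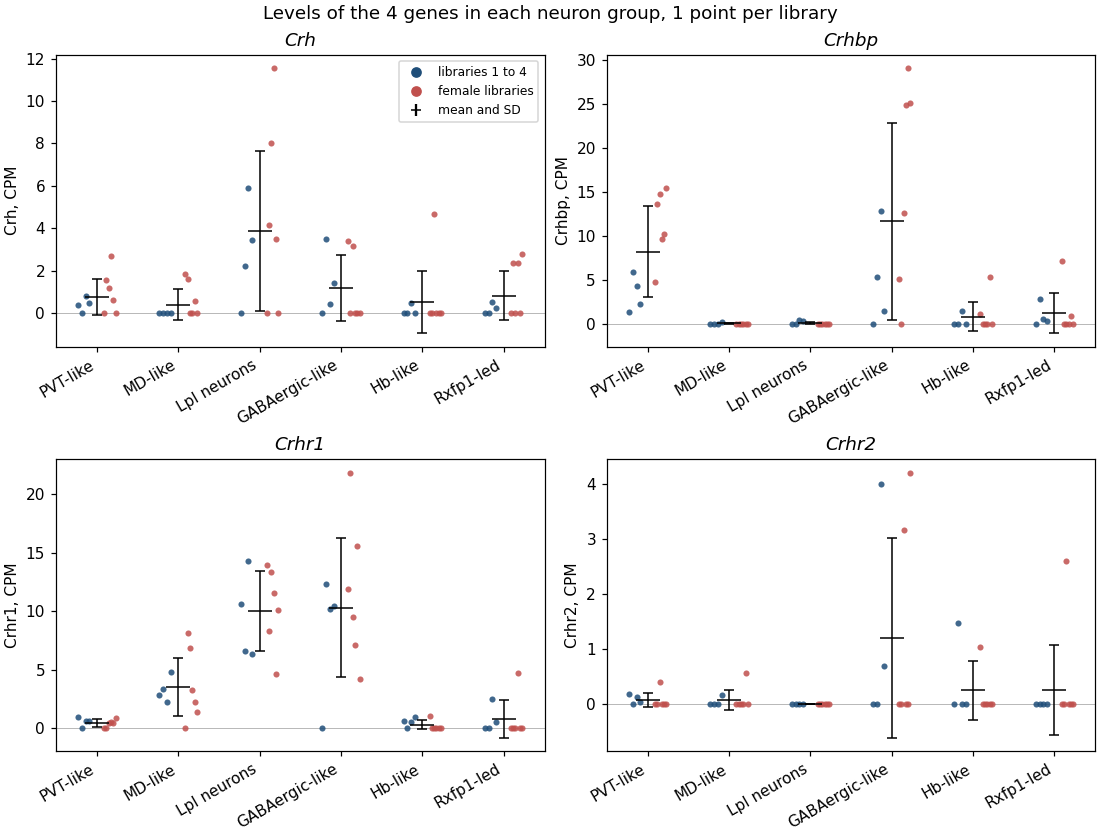
Level of each gene (CPM, vertical axis, separate scale per gene) in each group of neurons, with 1 point per library (blue, libraries 1 to 4; red, female libraries) and black bars for the mean and SD over 10 libraries. *Crh* was highest in *Lpl* neurons (3.87 ± 3.78), *Crhbp* in GABAergic-like and PVT-like neurons, *Crhr1* in GABAergic-like and *Lpl* neurons, and *Crhr2* was at 0 in most libraries of every group.

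Within the PVT-like neurons, *Crhbp* was concentrated in the PVT3-like and *Gem*-led clusters, which held 201 and 138 of its 369 UMIs. PVT3-like neurons, whose leading genes include *Cadps2*, had *Crhbp* in all 10 libraries, at 1.58 to 61.0 CPM with a median of 27.6. The next named clusters, PVT4-like (0.989 ± 1.23), PVT1-like (0.502 ± 0.846), PVT2-like (0.0496 ± 0.149) and PVT5-like (0.0380 ± 0.120), had 11, 7, 2 and 2 UMIs, and *Cdh22*-led neurons were at 0.787 ± 0.981. In the *Gem*-led cluster 5 libraries had at least 10 nuclei, and their *Crhbp* levels were 44.8, 260.4 and 183 in female libraries 2, 3 and 5 and 36.1 and 38.5 in libraries 3 and 4. Of these, 3 lay within the range of the PVT3-like neurons and 2 above it. The edgeR log2 differences were 3.95 ± 0.21 in PVT3-like neurons (adjusted p = 6.9e-80), where 6.79% of genes were called higher, and 5.87 ± 0.27 in the *Gem*-led cluster (adjusted p = 1.0e-100), where 1.96% were. With the filter they were 3.92 ± 0.22 and 5.95 ± 0.30, and both were called. These 2 clusters hold most of the *Crhbp* UMIs on which the filter acts, so the filtered fit is not separate support.

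In the exact test PVT3-like neurons were above PVT1-like, PVT4-like, PVT5-like and *Cdh22*-led neurons in 10 of 10 libraries (exact p = 0.00195, adjusted p = 0.0410). These were the 4 pairs of 84 that passed for any member among the PVT clusters. With 5 libraries the *Gem*-led cluster could not go below an exact p of 0.0625, so it was described by its values. *Crhbp* was called lower in PVT1-like neurons (log2 difference -1.99 ± 0.55, adjusted p = 0.0039, 7 UMIs) and, from 2 UMIs each, in PVT2-like and PVT5-like neurons, where 2.07%, 2.41% and 1.81% of genes were called lower. These lower calls were lost in the female libraries alone and without library 4 (adjusted p = 1 in each), and that of PVT2-like neurons also without library 3 (adjusted p = 0.0540).

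*Crhbp* molecules came from few nuclei. In PVT3-like neurons 100 of 898 nuclei (11.1%, exact 95% interval 9.15 to 13.4) had a UMI and 26 had 3 or more, in 8 libraries. In the *Gem*-led cluster 30 of 160 (18.8%, 13.0 to 25.7) had a UMI and 16 had 3 or more, in 7 libraries. Every one of the 100 positive PVT3-like nuclei had a *Cadps2* UMI, against 93.2% of the others, and in the *Gem*-led cluster 29 of 30 did, against 54.6%. Sorting PVT-like neurons by the 3 marker genes alone put 284 of 369 *Crhbp* UMIs into the 680 nuclei assigned to *Cadps2*, at 11.1 to 90.8 CPM with a median of 53.1. At the finer resolution the cluster led by *Gem* met the PVT3 markers, and the clusters named PVT3 together held 335 *Crhbp* UMIs in 991 nuclei.

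**Figure D3:**
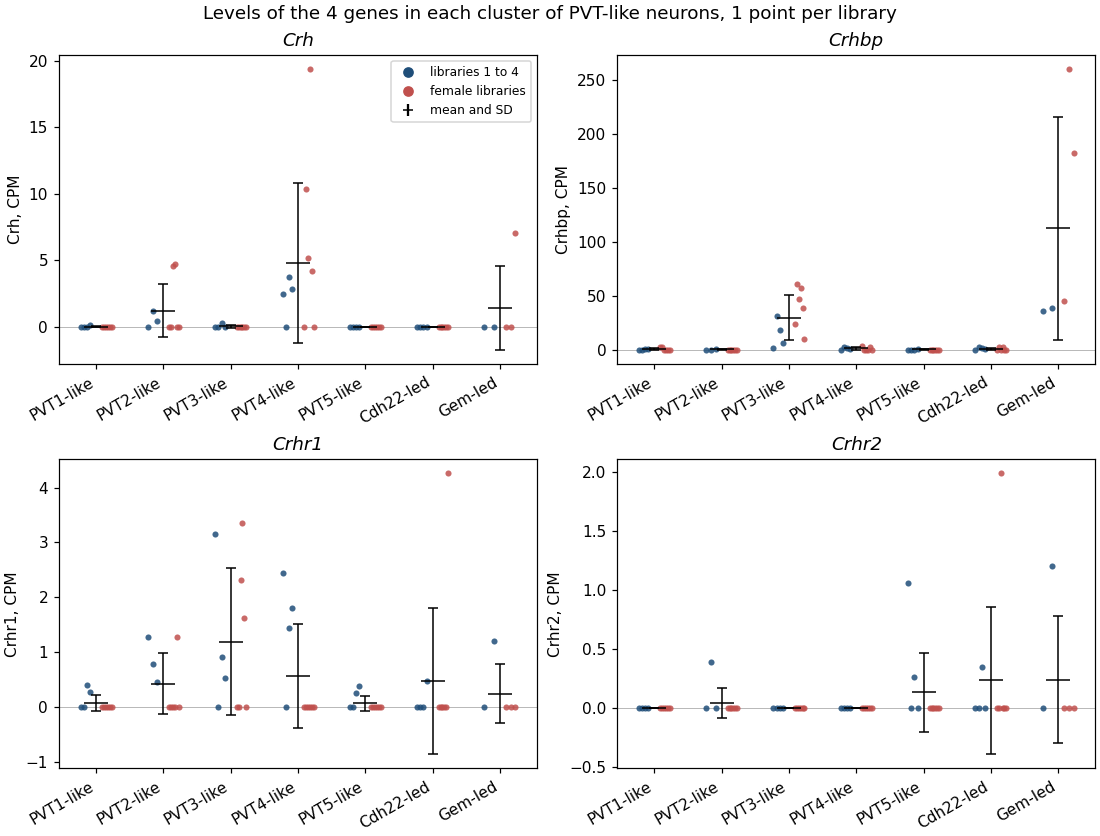
Level of each gene (CPM, vertical axis, separate scale per gene) in each cluster of PVT-like neurons, with 1 point per library (blue, libraries 1 to 4; red, female libraries) and black bars for the mean and SD; the *Gem*-led cluster has 5 libraries and PVT2-like neurons have 9. *Crh* was highest in PVT4-like neurons (4.81 ± 6.00), and *Crhbp* in PVT3-like neurons (29.5 ± 21.0) and the *Gem*-led cluster (112 ± 103).

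The receptor gene *Crhr1* was highest in GABAergic-like and *Lpl* neurons. In *Lpl* neurons it ranged from 4.63 to 14.3 CPM with a median of 10.4, from 92 UMIs in all 10 libraries. In GABAergic-like neurons it ranged from 0 to 21.8 with a median of 10.3, from 74 UMIs in 9 libraries. MD-like neurons came next at 0 to 8.09 with a median of 3.06, from 59 UMIs in 9 libraries. *Crhr1* in *Lpl* neurons lay above its level in PVT-like and Hb-like neurons without overlap.

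The means of 10.3 ± 5.97 in GABAergic-like and 9.98 ± 3.42 in *Lpl* neurons were not told apart (difference 0.324 ± 7.85, SD over 10 libraries, exact p = 0.895, adjusted p = 1). *Lpl* neurons were above MD-like neurons (3.51 ± 2.45) in 10 of 10 libraries (exact p = 0.00195, adjusted p = 0.0167). MD-like neurons and the *Rxfp1*-led cluster (0.777 ± 1.60) were not told apart after adjustment (exact p = 0.0234, adjusted p = 0.0639), nor were the groups below them, PVT-like (0.433 ± 0.345) and Hb-like neurons (0.308 ± 0.425). MD-like neurons were above PVT-like neurons in 9 of 10 libraries (exact p = 0.00391, adjusted p = 0.0195). Of 15 pairs of groups, 10 passed for *Crhr1*, 7 for *Crhbp*, 3 for *Crh* and 0 for *Crhr2*.

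In edgeR, *Crhr1* was called higher in *Lpl* neurons (2.54 ± 0.25, adjusted p = 3.1e-22), GABAergic-like neurons (2.51 ± 0.27, adjusted p = 2.1e-19) and MD-like neurons (0.99 ± 0.27, adjusted p = 0.0016), where 8.48% of genes were called higher in MD-like neurons. It was called lower in PVT-like neurons (-2.28 ± 0.34, adjusted p = 5.5e-10), Hb-like neurons (-2.34 ± 0.55, adjusted p = 0.00010) and the *Rxfp1*-led cluster (-1.43 ± 0.46, adjusted p = 0.0201), where 3.54%, 12.6% and 3.09% of genes were called lower. The MD-like call was lost without library 4 (0.70, adjusted p = 0.127), as was that of the *Rxfp1*-led cluster (-1.08, adjusted p = 0.268), which was at -2.20 without library 3. With neurons of over 2000 genes alone, the log2 difference of *Crhr1* in the cluster named from *Lpl* was 1.14 and still called. Thus the PVT-like neurons, which held 57.1% of the clustered neurons, held 42 *Crhr1* UMIs, fewer than any of the 3 groups in which it was called higher. Among PVT clusters *Crhr1* was sparse, from 0.0641 ± 0.138 in PVT5-like to 1.19 ± 1.34 in PVT3-like neurons, with no call in edgeR and none of 21 pairs passing. At the finer resolution of 0.6, a cluster of 175 nuclei led by *Hs3st4* held 9 of the *Crhr1* UMIs, at 4.23 CPM with all libraries pooled. The other clusters at this resolution were at 0.252 to 0.855.

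*Crhr2* was too sparse for an order. GABAergic-like neurons held 12 UMIs in 4 of 10 libraries, at 0 to 4.20 CPM with a median of 0, and 9 of the 12 came from library 3. Hb-like and MD-like neurons had 2 UMIs each, PVT-like neurons 6, the *Rxfp1*-led cluster 1 and *Lpl* neurons 0. The edgeR call in GABAergic-like neurons (3.01 ± 0.71, adjusted p = 0.00024) was lost without library 3 (1.75, adjusted p = 0.241). Among PVT clusters there were 1 to 2 *Crhr2* UMIs in PVT2-like, PVT5-like, *Cdh22*-led and *Gem*-led neurons and 0 in the other clusters.

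**Figure D4:**
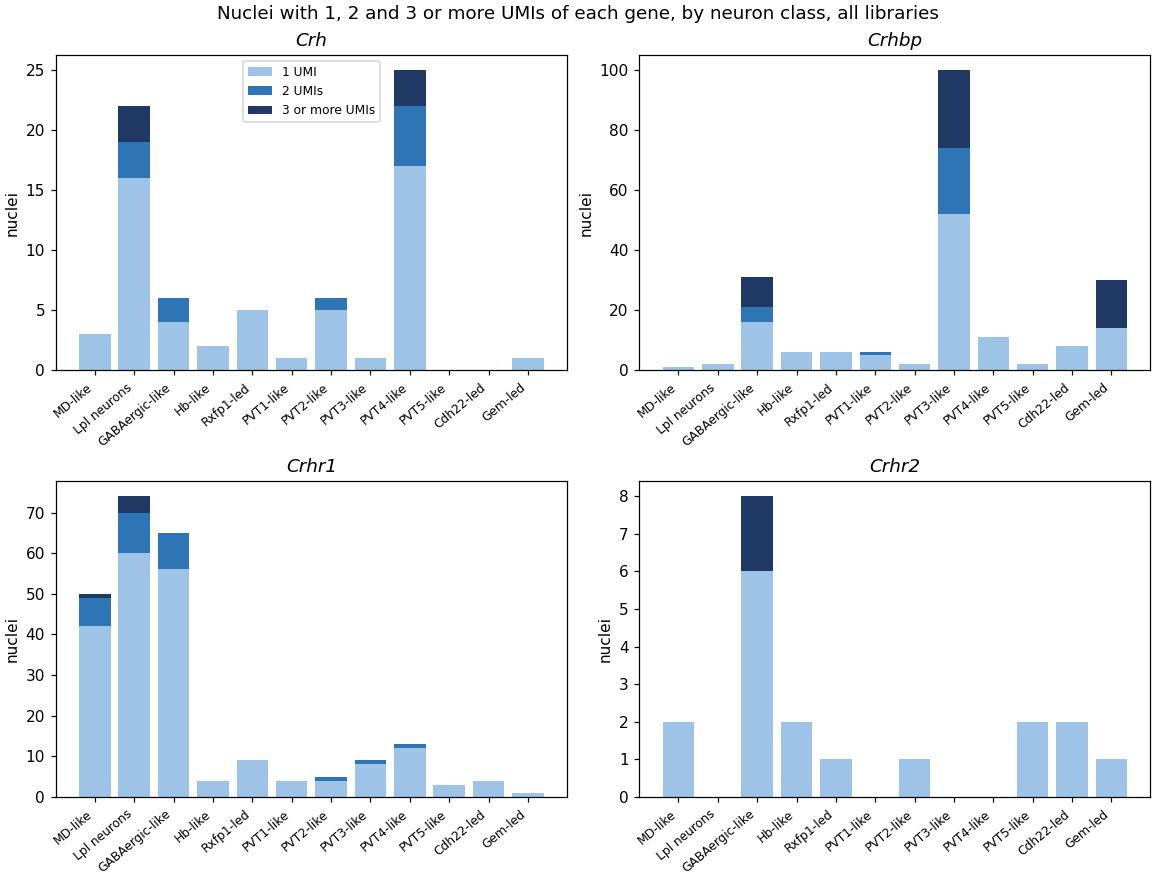
Number of nuclei (vertical axis) with 1, 2, and 3 or more UMIs of each gene in the neuron groups, PVT-like neurons being divided into their clusters, over all libraries. *Crhbp* had 26 PVT3-like, 16 *Gem*-led and 10 GABAergic-like nuclei with 3 or more UMIs, and *Crh* had 3 PVT4-like and 3 *Lpl* nuclei.

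Shares of nuclei with a UMI follow depth, so each nucleus was also thinned to 2000 UMIs, with shallower nuclei left out, and set beside oligodendrocytes, which had median depths of 2321 UMIs before thinning against 11157 in neurons. For *Crhbp* the thinned share was 4.25% (exact 95% interval 3.03 to 5.79) in PVT3-like neurons, 11.9% (7.30 to 17.9) in the *Gem*-led cluster and 1.43% (0.764 to 2.44) in GABAergic-like neurons, against 0.5% (0.216 to 0.983) in oligodendrocytes. Of these, the first 2 lay above oligodendrocytes without overlap of the intervals. The intervals pool nuclei of all libraries and leave out the spread between libraries, here and for *Crhr1* and *Crh* below. As mean ± SD over libraries the thinned *Crhbp* share was 5.17 ± 3.44% in PVT3-like neurons and 14.2 ± 12.1% in the *Gem*-led cluster (5 libraries). In oligodendrocytes it was 0.298 ± 0.415%. Thinning left out 477 oligodendrocytes of the female libraries and 385 of libraries 1 to 4, 1 and 3 PVT3-like neurons, and 14 and 14 GABAergic-like neurons. For *Crhr1* the shares were 2.53% (1.61 to 3.78) in GABAergic-like, 1.95% (1.10 to 3.20) in *Lpl* and 0.534% (0.173 to 1.24) in MD-like neurons, against 0.188% (0.0387 to 0.547) in oligodendrocytes. Without thinning they were 6.94%, 9.61% and 5.34% against 0.203%. Thinned to 1000 UMIs, *Crhbp* was at 1.89% (1.11 to 3.01) in PVT3-like neurons against 0.260% (0.0954 to 0.565) in oligodendrocytes, and *Crhr1* at 1.60% (0.900 to 2.63) in GABAergic-like and 0.390% (0.0804 to 1.13) in *Lpl* neurons against 0.130% (0.0268 to 0.379), so that *Lpl* neurons were no longer separated by their interval.

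For *Crh* the thinned share was 0.813% (0.327 to 1.67) in PVT4-like and 0.260% (0.0316 to 0.938) in *Lpl* neurons, against 0.188% (0.0387 to 0.547) in oligodendrocytes, so that at this depth neither was separated from oligodendrocytes by its interval. Without thinning the *Crh* shares were 2.90% in PVT4-like neurons, with a median of 11748 UMIs, and 2.86% in *Lpl* neurons, with a median of 11426.5 UMIs, against 0.122% in oligodendrocytes. Thinned to 1000 UMIs they were 0.581% (0.189 to 1.35) and 0.519% (0.142 to 1.32), from 5 and 4 nuclei, against 0.130% (0.0268 to 0.379), again without separation. Each thinning, here and for the other members, was a single random draw. The *Lpl* share, from 2 nuclei at 2000 UMIs, was higher at the lower depth.

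Few nuclei had UMIs of more than 1 member. Of 72 clustered neurons with *Crh*, 1 (1.39%) had *Crhbp*, against 1.99% of all clustered neurons, and 4 (5.56%) had *Crhr1*, against 2.34%. Of these 4, 3 were among the 22 *Lpl* neurons with *Crh* (13.6%), where 9.61% of all nuclei had *Crhr1*. Of 205 neurons with *Crhbp*, 9 (4.39%) had *Crhr1*, 4 of them GABAergic-like, where 4 of 31 *Crhbp* nuclei (12.9%) and 6.94% of all nuclei had *Crhr1*. *Crhr2* was not found in a nucleus with *Crh* or *Crhbp*. In sparse counts most joint presence goes unseen, and no test was made.

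Between the sets of libraries, *Crhbp* was the member called in PVT-like neurons. In libraries 1, 2, 3 and 4 it was at 1.34, 5.88, 4.23 and 2.21 CPM, and in the 6 female libraries it ranged from 4.75 to 15.4 with a median of 11.9. The sets overlapped in 1 place, the lowest female library lying below library 2. The female libraries were higher by 1.69 ± 0.35 on the log2 scale (edgeR, adjusted p = 0.0012), where 6.70% of 27243 genes were called higher in them, and by 1.76 ± 0.38 with the filter (adjusted p = 0.0044). The filter acts on the same UMIs, which were more frequent in the female libraries, so the filtered fit is not separate support. By exact permutation over the 210 allocations of libraries to sets p was 0.0190, which did not pass over the 56 values tested (adjusted p = 0.622). *Crh* (0.73 ± 0.71, adjusted p = 0.553), *Crhr1* (-0.82 ± 0.72, adjusted p = 0.510) and *Crhr2* (-0.54 ± 1.18, adjusted p = 0.820) were not called, and so 1 of 4 members was.

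The mean of *Crhbp* was higher in the female libraries in some classes and not in others. Over all neurons the means were 7.40 ± 2.45 in the female libraries and 2.46 ± 1.56 in libraries 1 to 4 (exact p = 0.0286, adjusted p = 0.622). In PVT3-like neurons libraries 1, 2, 3 and 4 were at 1.58, 31.3, 18.4 and 6.39, and the female libraries ranged from 9.89 to 61.0 with a median of 42.6 (exact p = 0.0619, adjusted p = 0.703). GABAergic-like neurons were at 16.2 ± 12.0 and 4.88 ± 5.76 (exact p = 0.138, adjusted p = 0.703). Astrocytes were at 3.28 ± 1.29 and 2.47 ± 1.62 (exact p = 0.4). The mean was lower in the female libraries in PVT4-like (0.917 against 1.10) and *Cdh22*-led neurons (0.746 against 0.848), and PVT2-like, PVT5-like, *Lpl* and MD-like neurons had *Crhbp* UMIs in libraries 1 to 4 alone (2, 2, 2 and 1).

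PVT3-like neurons made up 18.3 ± 2.11% of PVT-like nuclei in the female libraries and 14.5 ± 3.75% in libraries 1 to 4. *Cadps2*, the gene that marks the subtype, was at 1249 ± 223 CPM in the PVT3-like neurons of the female libraries and at 1319 ± 224 in those of libraries 1 to 4 (exact p = 0.648). The share of PVT-like nuclei with a *Crhbp* UMI, at unequal depth, ranged from 2.19% to 5.87% in the female libraries and from 1.38% to 4.57% in libraries 1 to 4. No test of whether a member's difference between classes itself differed between the sets of libraries passed (smallest adjusted p = 0.279, exact permutation).

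**Figure D5:**
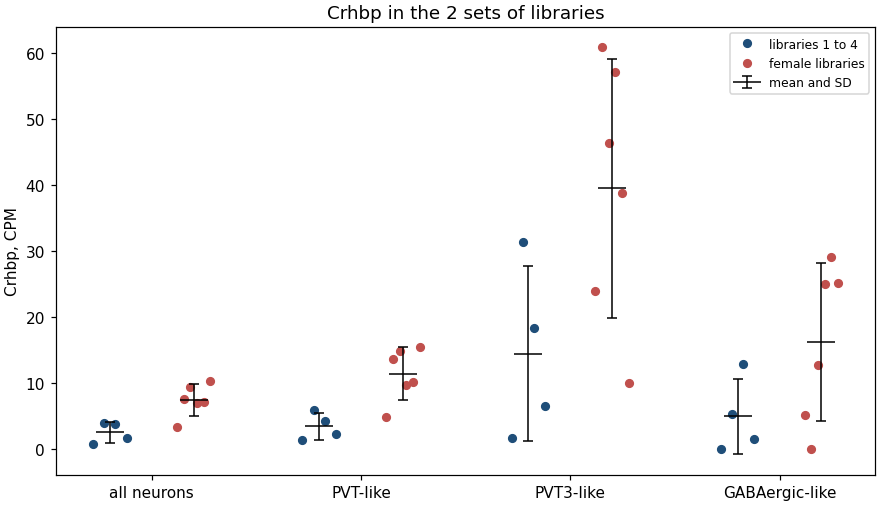
*Crhbp* level (CPM, vertical axis) in all neurons, PVT-like, PVT3-like and GABAergic-like neurons, with 1 point per library (blue, libraries 1 to 4; red, 6 female libraries) and black bars for the mean and SD of each set. The female libraries had the higher mean in each class shown (7.40 against 2.46 in all neurons), and the sets overlapped in each.

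The urocortins, which share the receptors with corticotropin-releasing factor, were sparse. *Ucn* had 17 UMIs, 15 of them in PVT-like neurons. *Ucn3* had 7 UMIs, 5 of them in GABAergic-like neurons and in 3 libraries. *Ucn2* had 20 UMIs in 20 nuclei, 12 of them neurons and 6 astrocytes.

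Genes on both sides of the receptors were read from a list of 30 (the urocortins, G protein subunits, adenylyl cyclases, protein kinase A, arrestins, glucocorticoid signalling and peptide processing), of which 27 passed the filter on low counts in the neuron groups and PVT clusters. In GABAergic-like neurons 8 were higher and 2 lower, where 14.0% and 8.00% of genes were, and the median log2 difference was 0.14 over the list and 0.04 over all genes. In *Lpl* neurons, high for *Crhr1* as well, 1 was higher and 1 lower, where 7.70% and 4.12% of genes were, with medians of 0.00 and -0.01. In PVT-like neurons 4 were higher and 6 lower (10.4% and 6.52% of genes), in MD-like neurons 6 and 8 (11.9% and 18.7%), in Hb-like neurons 7 and 9 (23.0% and 20.4%) and in the *Rxfp1*-led cluster 5 and 4 (8.31% and 6.41%).

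Adenylyl cyclases, which make cyclic AMP, differed by group. *Adcy2* in GABAergic-like neurons ranged from 92.4 to 252 CPM with a median of 132, against 23.8 to 49.0 in the mean of the other groups (log2 difference 2.57 ± 0.14, edgeR adjusted p = 8.7e-26). *Adcy1* in MD-like neurons ranged from 90.9 to 149, against 43.1 to 57.4 (1.67 ± 0.08, edgeR adjusted p = 1.5e-27). *Adcy8* in MD-like neurons ranged from 528 to 652, against 279 to 384 (1.04 ± 0.07, edgeR adjusted p = 3.3e-22). Each of these ranges lay above that of the mean of the other groups, and no single group was set beside another. These genes were picked for the smallest adjusted p among those called higher, so their ranges are not separate support. *Adcy2* was also called higher in Hb-like and PVT-like neurons, and *Adcy1* in the *Rxfp1*-led cluster.

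In Hb-like neurons, where *Crhr1* was called lower, *Rapgef4*, a cyclic AMP sensor, ranged from 745 to 1565 CPM against 174 to 235 in the mean of the other groups (2.52 ± 0.06, edgeR adjusted p = 1.6e-45). *Prkar2a*, a regulatory subunit of protein kinase A, ranged from 138 to 393 against 35.0 to 49.9 (2.46 ± 0.07, edgeR adjusted p = 7.7e-42). *Pam*, which amidates peptide hormones, ranged from 766 to 1178 against 136 to 266 (2.96 ± 0.09, edgeR adjusted p = 1.9e-41). *Pam* was also called higher in GABAergic-like neurons. Each range again lay wholly above that of this mean, in genes picked by the same rule on the same sums, so this is a description only.

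Among the PVT clusters, the list had 2 genes higher and 7 lower in PVT3-like neurons (7.65% and 7.77% of genes) and 0 higher and 1 lower in PVT4-like neurons (5.37% and 3.94%). In PVT3-like neurons *Pam* ranged from 158 to 291 CPM, against 45.9 to 112 in the mean of the other clusters (1.20 ± 0.07, edgeR adjusted p = 3.1e-28). *Adcy2* in PVT5-like neurons ranged from 106 to 214 against 27.3 to 48.6 (2.81 ± 0.09, edgeR adjusted p = 8.4e-48). *Nr3c2*, the mineralocorticoid receptor gene, was higher in PVT1-like neurons at 189.6 ± 24.3 against 123 ± 17.0 (0.92 ± 0.06, edgeR adjusted p = 6.7e-26). None of these was particular to 1 cluster. *Pam* was also called higher in PVT2-like and *Gem*-led neurons, *Adcy2* in PVT1-like and PVT2-like neurons, and *Nr3c2* in PVT2-like and PVT5-like neurons.

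PVT2-like neurons had the most list genes called higher among the PVT clusters, 6 of 27, where 5.87% of genes were, and 1 lower, where 4.37% were. Of these, *Rapgef4* was at 255 ± 28.2 CPM against 144 ± 16.3 (0.98 ± 0.06, edgeR adjusted p = 7.1e-30). The prohormone convertase genes *Pcsk2* and *Pcsk1*, which cleave peptide precursors, were at 1616 ± 177 against 1082 ± 66.7 and at 40.6 ± 25.4 against 7.22 ± 2.35 (log2 differences 0.64 ± 0.04 and 2.70 ± 0.21, edgeR adjusted p = 6.7e-25 and 9.4e-21). *Rapgef4* and *Pcsk1* were also called higher in PVT1-like neurons. The other clusters had 5 higher and 1 lower (PVT1-like, 4.74% and 3.96% of genes), 2 and 1 (PVT5-like, 3.36% and 3.29%), 1 and 1 (*Cdh22*-led, 2.28% and 2.39%) and 2 and 4 (*Gem*-led, 5.51% and 4.86%).

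The genes whose levels ran most like each member were ranked by Pearson's r of log2(CPM + 1) over 114 sums of a library and a neuron group or PVT cluster, among 11584 genes. The sums share libraries, depth and the clustering, and the values are a description. *Crhbp* was most like *Ecel1* (r = 0.73), *Slc25a13* (0.72), *Gypc* (0.64), *Maf* (0.64) and *Drd1* (0.63), of which *Drd1* and *Maf* are markers used to name PVT3. *Crhr1* was most like *Dcc* (0.71), *Nrp1* (0.67), *Adamts19* (0.67), *Gm15261* (0.65) and *Hs3st4* (0.65). *Crh* was less closely followed, by *Il1rapl2* (0.47), *Lpl*, *Gpr83* and *Pcdh7* (0.43 each) and *Cntnap5b* (0.42). *Crhr2* ran with *Slc32a1* (0.50), the vesicular GABA transporter, *Gm38505* and *Dlx6os1* (0.47 each), *Meis2* (0.43) and *Gm29683* (0.40), from 30 UMIs in all.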

How the data were processed

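Nuclei were profiled by the authors with 10x Genomics 3' droplet libraries, and reads were aligned and counted by the authors with Cell Ranger (version 6.1.1 and build mm10 in the submitters' processing notes, an earlier version in the study's methods, with the libraries each applies to not stated). Nuclei with few genes or many mitochondrial UMIs, and doublet or low-quality clusters, were removed by the authors. The deposited matrix holds raw UMI counts per gene and nucleus. The deposited table of nuclei gives library, cluster name and the percent of mitochondrial UMIs as computed by the authors, and 22 of its columns were not used. Matrix sums equalled the deposited UMI counts in all 20503 nuclei.

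Neurons were clustered in Python 3.11.15 (scanpy 1.11.5, leidenalg 0.10.2) from 16007 genes with at least 20 UMIs in each set of libraries and a log2 ratio between sets of at most 3, without the members. Pearson residuals (overdispersion 100), 3000 variable genes, Harmony over libraries, 20 neighbours and the best of 10 Leiden starts were used, with the study's 6 components and resolution 0.3 for neurons, and 18 and 0.4 for PVT-like neurons. A name needed 3 markers over 1.5 times the median cluster, a rule tightened once after first names had been seen. Scrublet called 153 doublets (0.746% of nuclei), whose removal was an alternative.

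Sums of UMIs over the nuclei of a class and library were tested with edgeR 4.0.16 under R 4.3.3 (glmQLFit and glmQLFTest after TMM scaling and the filterByExpr filter, with the library as a block between classes), adjusted by Benjamini-Hochberg over all genes tested. DESeq2 1.42.0 was an alternative. The SE is the log2 difference divided by the square root of F. The fits were tested on simulated data with the filter and with changes placed in well-counted genes only, which does not cover genes as sparse as the members. Intervals are exact binomial (Clopper-Pearson). Named pathway genes were the urocortins and the 6 with the smallest adjusted p among those called higher at each level, and 5 similar genes were named per member. Members and lists were chosen with earlier results of these data known. Gene positions are from a RefSeq table of build GRCm38 (mm10).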

Additional observations from a re-analysis of the deposited data

How the results depend on the processing

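The values below were set with 1 choice changed at a time. The 8 cell types gave 10079 called genes of 11007 tested with the filter on low counts and 20012 of 28832 without it. With nuclei of at most 1% mitochondrial UMIs they gave 5137 of 6170. Libraries 1 to 4 had no counted mitochondrial UMIs, so this cut may not be separate from the sets of libraries. The neuron groups gave 6389 and, without the filter, 11567. The PVT clusters gave 2703 and 5251. The sets of libraries gave 1761 in PVT-like neurons, 3868 without the filter and 550 among genes with at least 20 UMIs in each set. Leaving out each library in turn gave 9755 to 10272, 6107 to 6568, 2633 to 2884 and 1535 to 2497 called genes at these levels, 12 to 21 of 60 pairs of neuron groups passing (20 with all libraries, and 12 without female library 3, 4 or 5 or without library 2, 3 or 4), and 0 to 0 of 84 pairs of PVT clusters (4 with all libraries), since 9 libraries allow no exact p below 0.00391.

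Of the members' calls, those of *Crhbp* in neurons, PVT-like, GABAergic-like, PVT3-like and *Gem*-led neurons, of *Crhr1* in *Lpl*, GABAergic-like and PVT-like neurons, and of *Crhbp* between the sets of libraries held in every alternative that was run for them. With neurons of over 2000 genes, the cluster named GABAergic-like held 1187 nuclei against 936. Its leading genes then included *Hs3st4*, a leading gene of the *Lpl* neurons, so its calls there do not concern the same class. Over the members' values 368 kept their side or, for shares of nuclei, moved by less than 1 SD, 23 lost their call, 6 shares of nuclei moved by more, all without thinning, and 1 value reversed. Beside the losses given above, in the female libraries alone, *Crhr2* in GABAergic-like (adjusted p = 0.47), *Crhr1* in MD-like (0.120), Hb-like (0.133) and *Rxfp1*-led neurons (0.359) and *Crhbp* in MD-like neurons (1) lost theirs, in libraries 1 to 4 alone *Crhr1* in *Rxfp1*-led neurons (0.155), and at resolution 0.6 *Crhbp* in PVT5-like neurons (0.489), all in edgeR. DESeq2 gave no adjusted p for *Crhr2* in GABAergic-like neurons (2.06 ± 2.05). The cause of these losses was not tested.

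Replicate numbers are shared by female libraries and libraries 1 to 4 in their titles, but same-numbered libraries did not deviate together (correlations 0.037, 0.047, -0.094 and 0.008), so they share only a number. With the replicate block 1994 genes were called, *Crhbp* kept its call, and *Crhr2* reversed to 0.26 ± 2.13 (adjusted p = 0.967 in edgeR), not called in either fit. The smallest exact p over 5 libraries is 0.0625. *Crhr2* and the urocortins had too few molecules for an order between classes.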
